A study of Mustela putorius furo and Mus musculus with 4 samples.

Results

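The genes described here are 7 brakes on the cell cycle that act beside *Cdkn1a* (p21). They are the CIP/KIP inhibitors *Cdkn1b* and *Cdkn1c*, the INK4 inhibitors *Cdkn2c* and *Cdkn2d*, and the pocket protein genes *Rb1*, *Rbl1* and *Rbl2*. They were taken by symbol, not by their values, and make up 7 of the 17170 genes of the mouse table and 7 of the 22008 genes of the ferret table. The mouse table holds 2 single-cell RNA-Seq (scRNA-Seq) libraries of CD1 cortex at E18. In 1 of them (*Smo*-cKO, "Smo CKO" in the labels) *Smo* F/F was combined with *hGFAP-Cre*, and the other is from a littermate (control). *Smo* encodes the transducer of SHH signaling, and *hGFAP-Cre* deletes it in cortical radial glia (RG) and their progeny. The study also reports *hGFAP-Cre* at a later stage in radial glia of the lateral ganglionic eminence. Inhibitory cells born there may therefore have lost the gene too, whereas cells outside these lineages keep it. The labels call the control "wild type", whereas the study's text calls it *Smo* F/F without Cre. All mouse cells carried a Flash-Tag dye, injected at E17 and used for sorting, which enriches cells near the ventricle at injection and their progeny. The ferret table holds wild type E39 cortex of 1 embryo in 2 sets of barcodes.

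A cell leaves the cycle when cyclin-CDK complexes no longer inactivate the pocket proteins, which otherwise hold E2F target genes silent. INK4 proteins bind CDK4 and CDK6, whereas CIP/KIP proteins bind cyclin-CDK complexes more broadly. In the developing cortex, p27 (*Cdkn1b*) and p57 (*Cdkn1c*) are known for promoting cell cycle exit and neuronal differentiation, and *Cdkn1c* is an imprinted gene expressed from the maternal allele.

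Of the deposited cells, 10498 control and 7209 *Smo*-cKO cells were kept, with median depths of 4033.5 and 4836 UMIs, and 10185 and 13052 ferret cells, with medians of 2556 and 3563 UMIs. With 1 library per genotype, no difference between genotypes could be tested, and embryo, preparation and genotype cannot be told apart. Each level below is the CPM of a gene, its share of the summed UMIs of 1 cell type in 1 library scaled to a common total, with its exact Poisson 95% interval, and each ratio carries an exact conditional binomial 95% interval. These intervals cover counting error only. A gene was counted as higher or lower when its ratio passed 1.5-fold with at least 50 UMIs in both groups together. The genotype of each mouse library was taken from its number of cells alone, and every mouse direction rests on that assignment. *Smo* itself had 94 UMIs (14.4 CPM) in non-cycling RG-like cells of control and 4 UMIs (0.485 CPM) in those of *Smo*-cKO.

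Cell types were set cell by cell from marker UMIs, and none of the 7 genes was a marker. They were RG-like cells, which were split into non-cycling, S phase and G2/M; bMIPC-like cells, the basal multipotent intermediate progenitors marked by *Egfr* and *Olig2*; PyN-IPC-like cells, the intermediate progenitors of pyramidal neurons (PyNs) marked by *Eomes* and *Neurog2*; and newborn and maturing PyN-like cells. Non-cycling RG-like cells numbered 1339 in control and 1171 in *Smo*-cKO and were led by *Aldoc*, *Clu* and *Mt3*, and all 12 RG markers passed the check in them. Non-cycling PyN-IPC-like cells numbered 2258 and 1444, newborn PyN-like cells 2134 and 1915, and maturing PyN-like cells 955 and 741. Cycling PyN-IPC-like cells numbered 601 and 112 and were led by S phase and histone genes, with 3 of their markers passing the check. These classes are ranges of a score: 917 and 464 PyN-IPC-like cells and 1177 and 1021 newborn PyN-like cells held exactly the 3 markers required, and 931 control and 456 *Smo*-cKO cells took no type.

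*Cdkn1c* differed between the mouse libraries in PyN-IPC-like and PyN-like cells and, at a low level, in non-cycling RG-like cells. In S phase and G2/M RG-like cells it stayed within 1.5-fold. The other 6 genes differed by less than 1.5-fold in most cell types. In non-cycling RG-like cells 1 of 7 genes passed 1.5-fold, against 10.6% of all genes with enough UMIs. The count was 2 of 7 in non-cycling PyN-IPC-like cells (all genes, 7.7%), 1 of 7 in newborn PyN-like cells (6.15%) and 2 of 6 in maturing PyN-like cells (8.63%). Among cycling cells it was 0 of 6 in S phase RG-like cells (14.1%), 0 of 7 in G2/M RG-like cells (11.3%), 1 of 7 in cycling PyN-IPC-like cells (14.1%) and 1 of 6 in bMIPC-like cells (11.8%). None of 4 passed in inhibitory-like cells (18%). In microglia-like cells 2 of 5 passed (26%), *Cdkn2c* at 0.531 (0.327–0.861) and *Rbl1* at 0.510 (0.283–0.919), from 37 and 37 UMIs and from 26 and 25 UMIs. *Cdkn1c* was among the genes in each count above 0 except those of microglia-like cells and of bMIPC-like cells, where the gene was *Cdkn2d*, and it was joined by *Rbl1* in PyN-IPC-like cells and by *Cdkn2c* in maturing PyN-like cells.

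**Figure D1:**
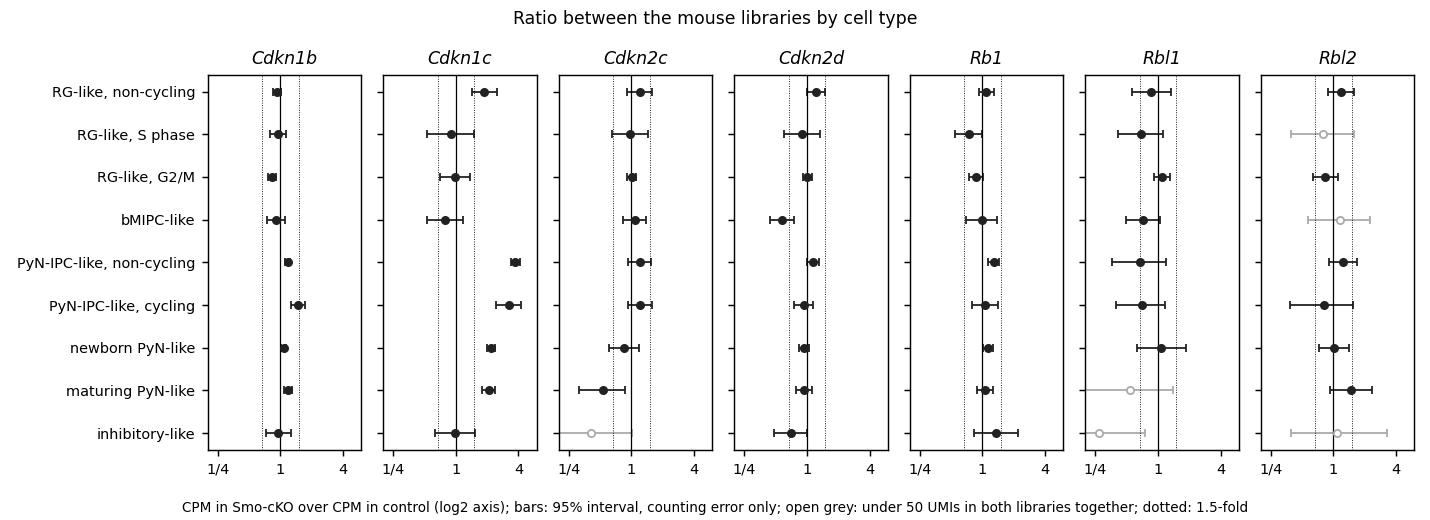
Ratio of CPM in Smo-cKO over control (horizontal log2 axis) for each gene and mouse cell type (rows); points are ratios from 1 library each, bars are 95% intervals of counting error, open grey points have under 50 UMIs, dotted lines mark 1.5-fold, and some grey bars run past the axis. Cdkn1c stands to the right of the dotted line in non-cycling RG-like, PyN-IPC-like and PyN-like cells, up to 3.74, and near 1 in G2/M RG-like and inhibitory-like cells.

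*Cdkn1c* was at 57.1 CPM (52.4–62.1) in non-cycling PyN-IPC-like cells of control and at 213 CPM (203–224) in those of *Smo*-cKO, a ratio of 3.74 (3.39–4.13) from 541 and 1603 UMIs. This ratio was the 35th highest of 10228 genes. In cycling PyN-IPC-like cells it was at 32.9 and 106 CPM, a ratio of 3.22 (2.43–4.25). Newborn PyN-like cells held 97.0 CPM (90.4–104) and 210 CPM (200–220), a ratio of 2.16 (1.99–2.36). Maturing PyN-like cells held 78.9 CPM (70.4–88.3) and 163 CPM (149–177), a ratio of 2.06 (1.79–2.38). The intervals of the 2 libraries were apart in all 4 of these cell types.

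The order of the *Cdkn1c* levels along the lineage was not the same in the libraries. In control the level was lowest in non-cycling and G2/M RG-like cells (11.6 and 11.7 CPM, intervals overlapping), was higher in PyN-IPC-like cells and was highest in newborn PyN-like cells, and the newborn level was 1.70 times (1.52–1.90) the level of non-cycling PyN-IPC-like cells. In *Smo*-cKO that step was 0.984 (0.919–1.05), so PyN-IPC-like cells already held the level of newborn PyN-like cells. The step from non-cycling RG-like to non-cycling PyN-IPC-like cells was 4.91 (3.86–6.33) in control and 9.78 (8.38–11.5) in *Smo*-cKO. In both libraries the maturing PyN-like level was below the newborn one, with intervals apart.

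The share of cells with a *Cdkn1c* UMI followed the level. It was 14.7% of control and 39.3% of *Smo*-cKO non-cycling PyN-IPC-like cells, or 8.82% and 24.5% when each cell was thinned to 2000 UMIs. In newborn PyN-like cells it was 20.2% and 39.9%, or 13.1% and 25.7% thinned. Microglia-like cells, which belong to another lineage, had a *Cdkn1c* UMI in 1.08% of control cells and 5.17% of *Smo*-cKO cells at median depths of 8664 and 7571.5 UMIs, above the 3801 and 4918 UMIs of PyN-IPC-like cells. Their levels were 1.04 CPM (1 UMI) and 6.04 CPM (11 UMIs).

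The difference in *Cdkn1c* was present in subsets of PyN-IPC-like cells that were chosen after the data had been seen. Cells with a *Neurog2* UMI and no *Neurod1* UMI, 899 in control and 690 in *Smo*-cKO, held 54.1 and 216 CPM, a ratio of 4.00 (3.43–4.67). Cells with *Neurod1* and no *Neurog2* held 64.2 and 205 CPM, a ratio of 3.19 (2.42–4.24).

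Markers of other cell types moved less than *Cdkn1c* in non-cycling PyN-IPC-like cells, except for erythroid and microglial ones. The summed RG markers were at 1609 CPM in control and 2275 CPM in *Smo*-cKO, the newborn PyN markers at 789 and 821 CPM, the bMIPC markers at 96.4 and 142 CPM, and the 9 vascular markers at 7.70 and 9.45 CPM. Vascular-like cells of control held 171 CPM of *Cdkn1c*. Erythroid markers went from 12.6 to 314 CPM and microglial markers from 2.74 to 13.3 CPM. In newborn PyN-like cells, erythroid markers lay the other way, at 605 and 37.2 CPM. In maturing PyN-like cells, markers of Cajal-Retzius cells such as *Reln* were at 227 CPM in control and 64.9 CPM in *Smo*-cKO. When types were taken from clusters, a cluster named newborn PyN had *Cdkn1c* among its leading genes, with *Zic1* and *Zic4*. It held 210 of the 10498 control cells and 247 of the 7209 *Smo*-cKO cells. The part of these markers and of this cluster in the *Cdkn1c* ratios was not tested.

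In non-cycling RG-like cells *Cdkn1c* was low, at 11.6 CPM (9.16–14.6) in control and 21.8 CPM (18.8–25.3) in *Smo*-cKO, a ratio of 1.88 (1.43–2.49) from 76 and 180 UMIs. Thinned to 2000 UMIs, 1.41% and 2.44% of these cells had a UMI, against 0.126% and 1.34% of microglia-like cells. Most of these UMIs lay in cells that also held a UMI of *Eomes*, *Neurog2* or *Neurod6*: without such cells, 6 UMIs in 887 control cells and 21 UMIs in 794 *Smo*-cKO cells were left, or 1.54 and 4.12 CPM, a ratio of 2.67 (1.04–8.07). The ratio also moved with the definition of the cells, to 3.93 (2.46–6.53) when cells with markers of a second type were left out and to 6.61 (3.81–12.4) when types were taken from clusters. In these cells the summed newborn PyN markers were at 210 CPM in control and 144 CPM in *Smo*-cKO, the PyN-IPC markers at 542 and 569 CPM, the vascular markers at 53.1 and 79.5 CPM and the erythroid markers at 2210 and 255 CPM, and their part in the ratio was not tested. Clustering split the RG-like cells largely by library, with 810 control and 38 *Smo*-cKO cells in 1 cluster and 43 and 827 in another. S phase RG-like cells held 19.3 and 17.3 CPM and G2/M RG-like cells 11.7 and 11.6 CPM, ratios of 0.896 and 0.988 (0.710–1.37). The S phase ratio was 1.74 without cells that held markers of a second type, and the G2/M ratio was 1.41. Outside the neurogenic lineage, the ratio was 0.794 (0.527–1.18) in bMIPC-like and 0.974 (0.633–1.52) in inhibitory-like cells.

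*Cdkn1b*, which encodes p27, was detected in every cell type and did not pass 1.5-fold between the libraries in any of them. Its levels in control and *Smo*-cKO were 175 and 163 CPM in non-cycling RG-like cells, 221 and 260 CPM in non-cycling PyN-IPC-like cells, 304 and 329 CPM in newborn PyN-like cells, and 239 and 285 CPM in maturing PyN-like cells. The ratios lay on opposite sides of 1 in RG-like and neuronal cells. They were 0.929 (0.858–1.01) in non-cycling and 0.835 (0.766–0.909) in G2/M RG-like cells, and 1.18 (1.10–1.25) in non-cycling PyN-IPC-like, 1.08 (1.02–1.14) in newborn and 1.20 (1.09–1.31) in maturing PyN-like cells. Over all genes the median ratio was 0.999 in non-cycling and 0.971 in G2/M RG-like cells. It was 1.04 in non-cycling PyN-IPC-like, 1.03 in newborn and 1.03 in maturing PyN-like cells, so part of the *Cdkn1b* split is shared with other genes. The highest *Cdkn1b* ratio was 1.48 (1.27–1.72), in cycling PyN-IPC-like cells, whose levels were 180 and 266 CPM.

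*Cdkn2c* and *Cdkn2d*, which encode p18 and p19, were at near-equal levels in the mouse libraries in most cell types. *Cdkn2c* was at 99.9 and 100.3 CPM in G2/M RG-like cells, a ratio of 1.00 (0.901–1.12), and at 14.4 and 17.2 CPM in non-cycling RG-like cells, a ratio of 1.20 (0.917–1.57). In maturing PyN-like cells it was at 13.8 CPM (54 UMIs) and 7.34 CPM (25 UMIs), a ratio of 0.531 (0.316–0.867), which was 0.772 when 4 markers were required and 0.997 when types were taken from clusters. *Cdkn2d* was at 25.9 and 31.5 CPM in non-cycling RG-like cells, a ratio of 1.22 (1.00–1.49), and at 109 and 110 CPM in G2/M RG-like cells. It passed 1.5-fold in bMIPC-like cells alone, at 84.6 and 48.7 CPM, a ratio of 0.576 (0.437–0.751) from 231 and 74 UMIs. That ratio no longer passed 1.5-fold with all deposited cells (0.668), with the mean over cells (0.700) or with clusters (0.734). The clusters named bMIPC include a cluster of 1175 cells led by histone genes, *Rrm2* and *Top2a*, beside a cluster of 554 cells led by *Olig1*. The cluster value therefore covers other cells than the bMIPC-like class.

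The pocket protein genes showed no ratio past 1.5-fold in RG-like cells. *Rb1*, the retinoblastoma gene, was at 38.7 and 42.2 CPM in non-cycling RG-like cells, 55.0 and 70.3 CPM in non-cycling PyN-IPC-like cells, and 73.8 and 83.8 CPM in newborn PyN-like cells. The ratios were 1.09 (0.925–1.29), 1.28 (1.13–1.45) and 1.14 (1.02–1.27). In S phase RG-like cells *Rb1* was at 62.3 and 46.2 CPM, a ratio of 0.741 (0.547–0.996). *Rbl1*, which encodes p107, was at 6.73 and 5.82 CPM in non-cycling RG-like cells. Its ratio of 0.666 (0.361–1.19) in non-cycling PyN-IPC-like cells rested on 36 and 19 UMIs, and its interval spans 1. *Rbl2*, which encodes p130, was at 13.2 and 15.5 CPM in non-cycling RG-like cells, a ratio of 1.18 (0.891–1.57), and at 9.23 and 13.5 CPM in maturing PyN-like cells, a ratio of 1.46 (0.926–2.33). In the RG-like cells without *Eomes*, *Neurog2* or *Neurod6* UMIs, the *Rbl2* ratio was 1.64 (1.14–2.41) from 44 and 95 UMIs. *Rb1* shares exon sequence with *Lpar6* and *Rcbtb2* and *Rbl2* with *Aktip*, each on the other strand, so these counts are uncertain if reads were counted without strand.

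**Figure D2:**
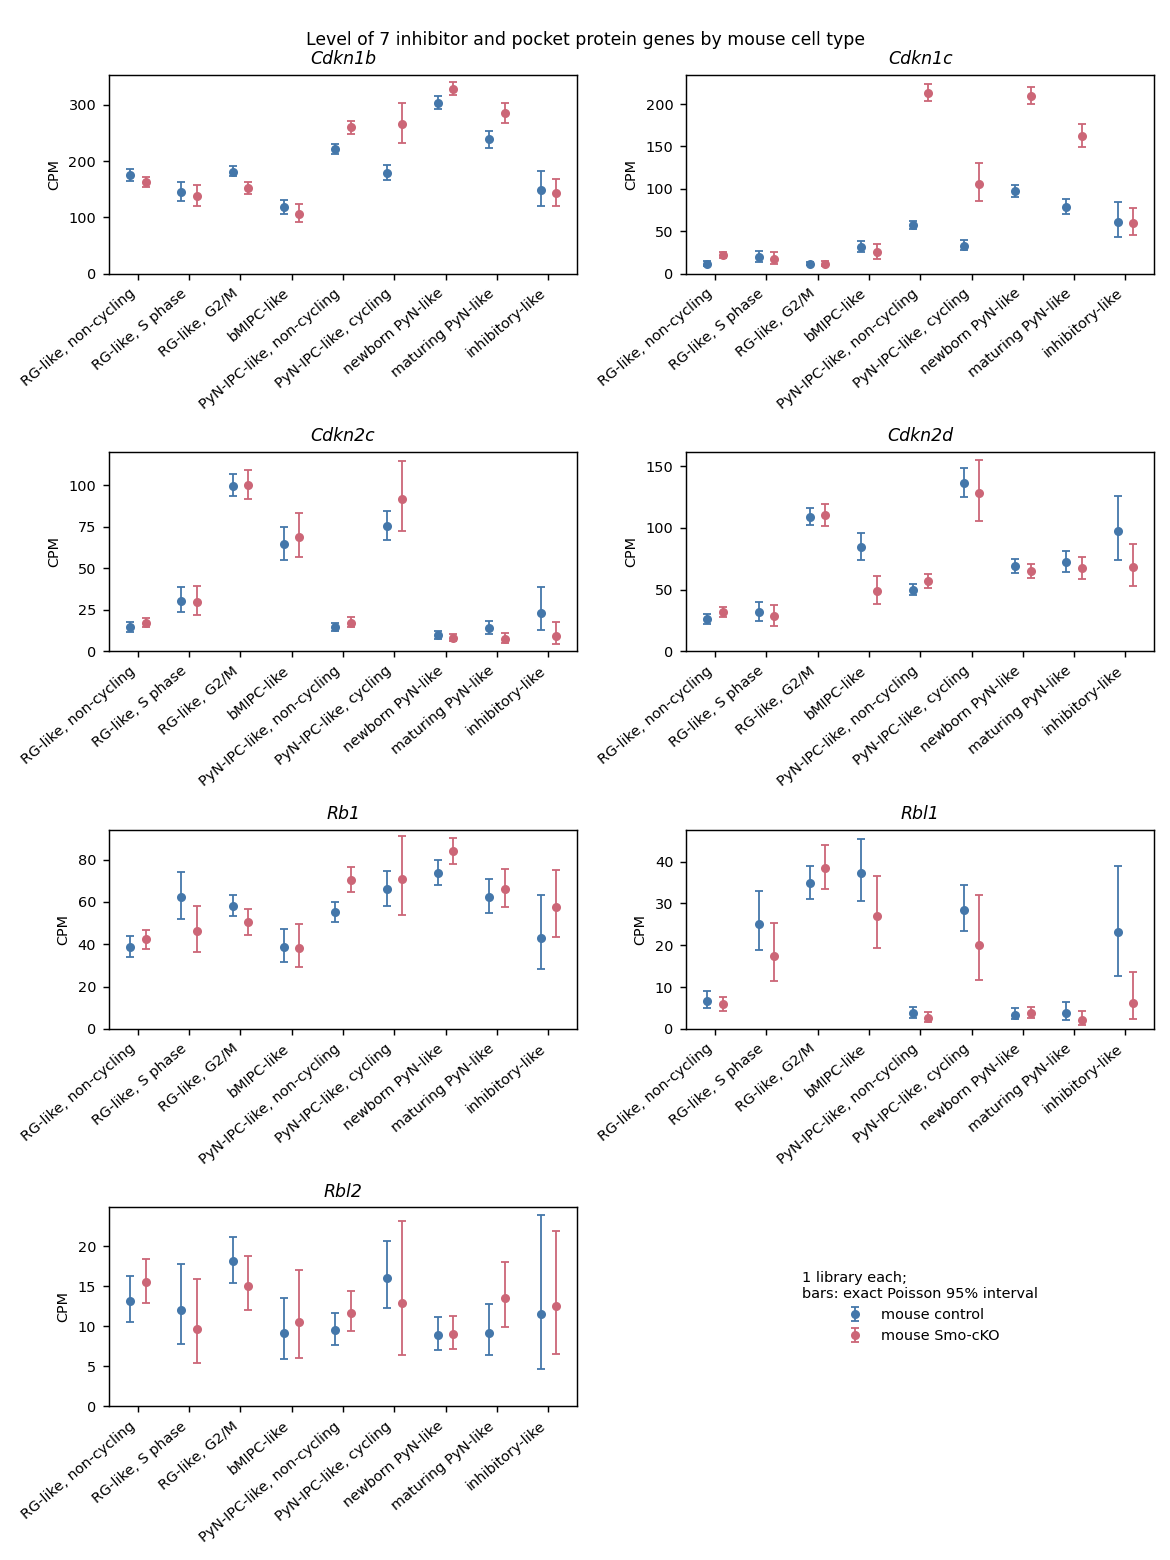
Level of each gene (vertical axis, CPM from 0, a scale of its own in each panel) by mouse cell type, blue for control and red for Smo-cKO; points are 1 library each and bars are exact Poisson 95% intervals. The libraries stand apart for Cdkn1c in PyN-IPC-like and PyN-like cells, whereas Cdkn2c, Cdkn2d and Rbl1 differ between cycling and non-cycling cells of the same library.

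Within each library, the combined newborn and maturing PyN-like cells were compared with non-cycling RG-like cells. In control 5 of 7 genes passed 1.5-fold, where 47.1% of all genes did, and in *Smo*-cKO 7 of 7 passed, where 50.5% did. *Cdkn1c* had the highest ratio of the 7 genes, 7.84 (6.21–10.0) in control and 8.99 (7.73–10.5) in *Smo*-cKO. With types from clusters these ratios were 45.7 and 14.8. *Cdkn2d* was 2.71 and 2.08 times as high in PyN-like cells, *Rb1* 1.81 and 1.86 times, and *Cdkn1b* 1.62 (1.51–1.73) and 1.95 (1.83–2.07) times. *Rbl1* lay below 1 at 0.529 and 0.552, *Rbl2* at 0.686 and 0.665, and *Cdkn2c* at 0.760 and 0.457. The inhibitors and pocket proteins thus did not move as 1 group from RG-like to PyN-like cells: 4 were higher, and *Cdkn2c*, *Rbl1* and *Rbl2* were lower or short of 1.5-fold.

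In ferret, 4 of 7 genes passed 1.5-fold in set 1 (all genes, 35.6%) and 4 of 7 in set 2 (44.3%). The 2 sets are cells of 1 embryo and are not replicates. The study describes dye sorting for the mouse cells alone, so species, stage and sorting cannot be told apart in any comparison with mouse. *CDKN1C* was at 116 and 102 CPM in non-cycling RG-like cells, 253 and 295 CPM in non-cycling PyN-IPC-like cells, 241 and 265 CPM in newborn and 245 and 273 CPM in maturing PyN-like cells. PyN-like over RG-like ratios were 2.11 (1.81–2.48) and 2.67 (2.28–3.14), lower than in either mouse library with intervals apart. Ferret microglia-like cells held 48.8 and 115 CPM, and 24.2% of those of set 2 had a *CDKN1C* UMI against 20.8% of its non-cycling RG-like cells, at medians of 3679 and 3290 UMIs. G2/M RG-like cells of the 2 sets were at 41.6 and 35.6 CPM and vascular-like cells at 29.8 and 50.1 CPM, below the non-cycling RG-like level with intervals apart. The microglia-like level of set 2 came from 29 UMIs in 62 cells. The source of *CDKN1C* UMIs in cells outside the neurogenic lineage, and their part in the ferret ratios, was not tested. The step from PyN-IPC-like to newborn PyN-like cells was 0.952 and 0.897.

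*CDKN1B* had another course in the ferret sets than in the mouse libraries, which differ in stage and sorting as well as species. In ferret it was at 87.1 and 90.8 CPM in non-cycling RG-like cells, 135 CPM in newborn PyN-like cells of both sets, and 78.0 and 73.7 CPM in maturing PyN-like cells. The PyN-like over RG-like ratios were 0.966 (0.805–1.17) and 0.913 (0.772–1.09), against 1.62 and 1.95 in mouse. For newborn PyN-like cells alone they were 1.55 and 1.49, against 1.74 and 2.02 in mouse. Maturing cells made up most ferret PyN-like cells, 6311 of 7141 and 7432 of 9157, and the maturing over newborn ratio was 0.577 and 0.545 in ferret and 0.785 and 0.867 in mouse.

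The other genes of the ferret table are described by the same ratios. *CDKN2C* was at 14.6 and 23.7 CPM in RG-like cells and at 2.74 and 1.77 CPM in maturing PyN-like cells, PyN-like over RG-like ratios of 0.246 and 0.129. *CDKN2D* ratios were 2.07 and 2.87, and *RBL1* ratios were 0.505 and 0.510. *RB1* stayed within 1.5-fold at 0.989 and 1.31. *RBL2* was at 25.8 and 47.3 CPM in RG-like cells of the 2 sets, a gap between sets of the same embryo that is wider than its PyN-like over RG-like ratios of 1.35 and 0.874. *CDKN2D* was the gene that was higher in maturing than in newborn PyN-like cells of ferret, 1.94 and 1.86 times, whereas in mouse that step was 1.05 and 1.04.

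**Figure D3:**
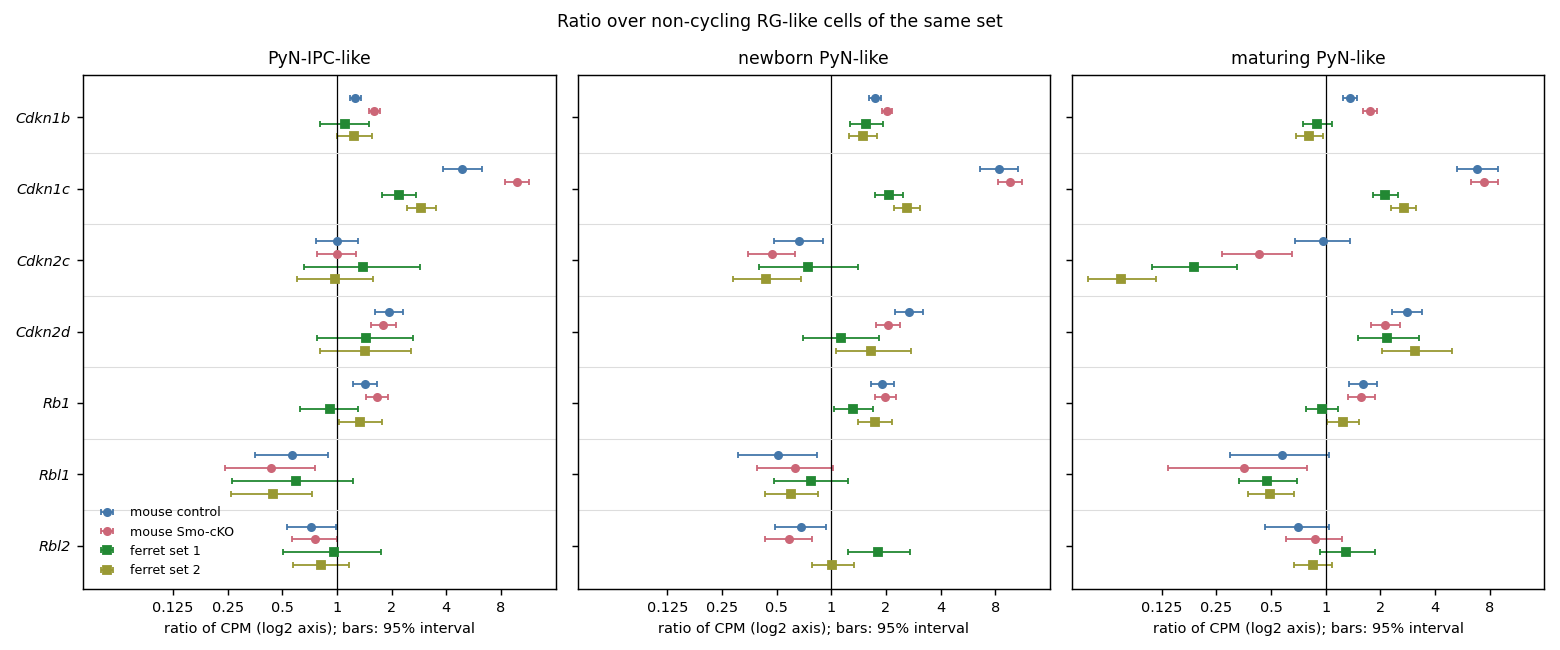
Ratio of CPM over non-cycling RG-like cells of the same set (horizontal log2 axis) in PyN-IPC-like, newborn and maturing PyN-like cells, with circles for the mouse libraries and squares for the ferret sets; bars are 95% intervals of counting error. Cdkn1c lies above 1 in all panels and sets, from 2.12 to 7.45 in maturing cells, Rbl1 lies below 1, and Cdkn1b of ferret lies above 1 in newborn and below 1 in maturing cells.

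Cycling state separated the 7 genes in another way. Cycling RG-like cells were compared with non-cycling ones in each set. There 4 of 7 genes passed 1.5-fold in control (all genes, 17.1%), 4 in *Smo*-cKO (18.7%), and 3 and 4 in the ferret sets (22.5% and 20%). *Cdkn2c* was higher in cycling cells in every set, 6.03 times (4.88–7.54) in control, 4.90 times in *Smo*-cKO, and 4.36 and 3.87 times in ferret. *Cdkn2d* was 3.65, 2.91, 1.83 and 2.96 times as high. *Rbl1* was 4.91 and 5.78 times as high in mouse and 1.46 and 1.88 times in ferret. *Rb1* was 1.52 times as high in control and 1.17 times in *Smo*-cKO. *Cdkn1b* lay close to 1 in every set, at 0.998, 0.914, 0.955 and 0.970. Cycling state was set by S phase and G2/M genes, none of them among the 7 genes.

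*Cdkn1c* was the gene that was lower in cycling RG-like cells of *Smo*-cKO and ferret. The ratio was 0.589 (0.451–0.763) in *Smo*-cKO and 0.400 and 0.427 in ferret and 1.13 (0.850–1.51) in control. Most *Cdkn1c* UMIs of the mouse non-cycling reference lay in cells that also held neuronal UMIs. Without cells holding *Eomes*, *Neurog2* or *Neurod6*, that reference was at 1.54 CPM in control and 4.12 CPM in *Smo*-cKO. Cycling RG-like cells were at 13.1 and 12.9 CPM but were not filtered in this way, so these values are not like for like. How the mouse ratios would change with both groups filtered was not tested. *Cdkn1c* was also lower in cycling than in non-cycling PyN-IPC-like cells of every set, at 0.577, 0.496, 0.397 and 0.596. In the same comparison *Cdkn2c* was 5.27, 5.34, 3.05 and 4.98 times as high and *Cdkn2d* 2.73, 2.26, 2.04 and 3.98 times, and *Cdkn1b* lay between 0.812 and 1.02. *Rbl1* was 7.49 times as high in control and 2.97 times in ferret set 2, and the other sets had too few *Rbl1* UMIs to be counted.

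In mouse the phases separated *Cdkn2d* from *Cdkn2c* and *Rbl1*. In S phase RG-like cells of mouse, *Cdkn2d* was at 31.4 and 28.2 CPM, 1.21 and 0.895 times the non-cycling level, whereas in G2/M cells it was 4.22 and 3.50 times that level. *Cdkn2c* was 2.12 (1.51–2.94) and 1.71 (1.20–2.40) times its non-cycling level in S phase and 6.95 and 5.82 times in G2/M. *Rbl1* was already 3.73 and 2.97 times as high in S phase and was 5.18 and 6.60 times as high in G2/M. The ferret sets differed: *RBL1* was at 1.80 and 2.39 in S phase and at 1.42 and 1.75 in G2/M. *CDKN2C* was at 2.62 (0.942–6.40) and 1.19 (0.617–2.19) in S phase and at 4.58 and 4.60 in G2/M. *CDKN2D* had 1 and 3 UMIs in S phase cells of ferret, and its G2/M ratios were 2.03 and 3.66. The number of cells at a phase boundary was 263 of 2984 RG-like cells in control and 186 of 1930 in *Smo*-cKO for G2/M, and 181 and 143 for S phase.

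**Figure D4:**
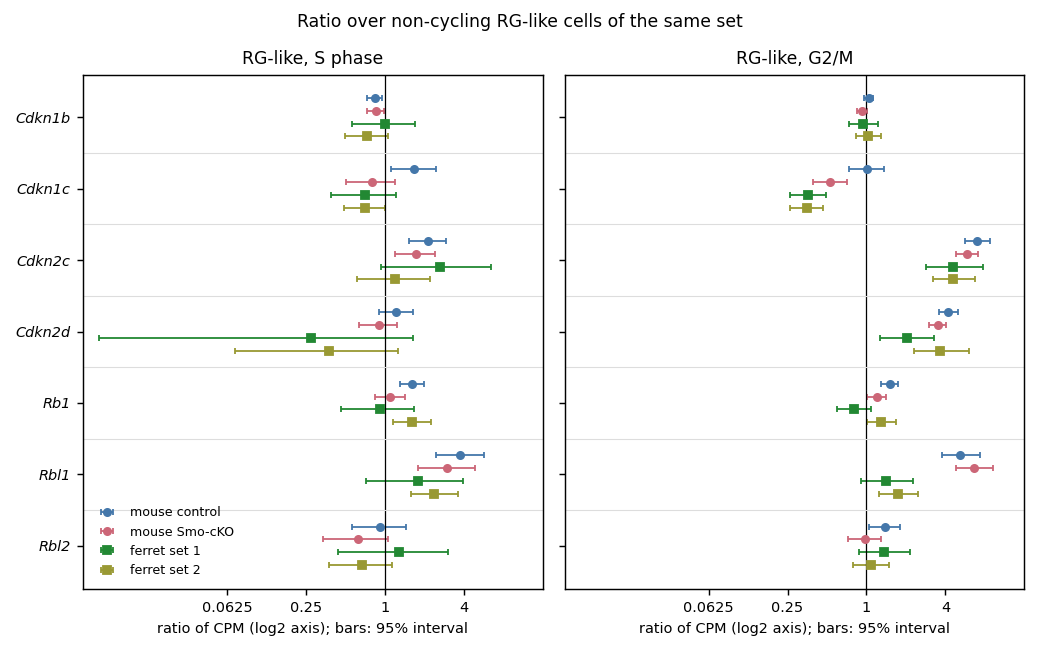
Ratio of CPM in S phase (left) and G2/M (right) RG-like cells over non-cycling RG-like cells of the same set (horizontal log2 axis), with circles for mouse and squares for ferret; bars are 95% intervals of counting error. In G2/M, Cdkn2c and Cdkn2d lie above 1 in all 4 sets and Cdkn1c lies at 1.01 in mouse control and below 1 in the other sets.

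Other genes of the pathway were described from a list of 45 that the table holds. In non-cycling RG-like cells 36 had enough UMIs, and 2 were higher and 5 lower in *Smo*-cKO, where 5.87% of all genes were higher and 4.69% lower. The study had already reported *Cdkn1a* as higher and *Ccnd1* and *Cdk6* as lower in RG cells of these data. The count therefore holds genes that were known beforehand and is a description only. The higher ones were *Cdkn1a*, at 18.2 and 127 CPM, a ratio of 6.98 (5.77–8.51), and *Btg1*, an antiproliferative gene, at 1.92 (1.83–2.01). The lower ones were *Ccnd1* (0.288) and *Cdk6* (0.390), which encode a D-type cyclin and its kinase; *Cdkn3* (0.447), a phosphatase gene that is itself high in mitosis; *Fbxw7* (0.617), part of a ubiquitin ligase; and *Ccne2* (0.623; 0.340–1.13), an E-type cyclin gene. No gene of the E2F and DP families passed 1.5-fold among the 7 with enough UMIs, nor did any of 5 genes of the DREAM complex, in which *Rbl1* and *Rbl2* proteins act.

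In non-cycling PyN-IPC-like cells 35 genes of the list had enough UMIs, and *Cdkn1a* alone was higher, at 2.53 and 22.9 CPM, a ratio of 9.05. *Cdk6* (0.240), *Mycn* (0.411), *Ccnd1* (0.437) and *Ccne1* (0.649) were lower, against 5.62% of all genes higher and 2.08% lower. In newborn PyN-like cells 2 of 37 were higher, *Cdkn1a* at 4.96 and *Lin54* at 1.80, and 6 were lower, among them *Cdk6* (0.250) and *Ccna2* (0.412). In maturing PyN-like cells *Cdkn1a* was at 3.27 and 5 of 31 were lower. Across these 4 cell types the *Cdkn1a* and *Cdkn1c* ratios had their highest values in PyN-IPC-like cells. The *Cdkn1a* ratio there rested on 24 control and 172 *Smo*-cKO UMIs. It rested on 10 and 51 UMIs in newborn and on 14 and 40 UMIs in maturing PyN-like cells. The order of the *Cdkn1a* ratios is therefore uncertain and was not tested. The *Cdkn1a* level of *Smo*-cKO was higher in RG-like than in PyN-IPC-like cells, the reverse of *Cdkn1c*. The cyclin and CDK genes were lower in 5 of 8 cases in newborn PyN-like cells, with a median ratio of 0.608, against a median of 1.03 over all genes. In newborn PyN-like cells 3.79% of all genes were higher and 2.36% lower, and in maturing ones 4.61% and 4.02%.

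Each gene's pattern over the mouse data was matched with 9766 genes by Pearson's r of log2(CPM + 10) across 21 points, each point being 1 cell type in 1 library. The points share libraries and differ in depth, so r is a description. *Cdkn2c* was most like *Hmgb2* (0.973), *Hjurp* (0.967) and *Dsn1* (0.963), and *Rbl1* most like *Dek* (0.960), *Cks1b* (0.958) and *Gmnn* (0.951). *Cdkn2d* was most like *Hyls1* (0.889), *Ube2s* (0.889) and *Pcnt* (0.853). *Cdkn1b* was most like *Gm11266* (0.961), *Ppp2r2b* (0.954) and *Sox5* (0.947). *Cdkn1c* was most like *Ccnl2* (0.922), *Nhsl1* (0.916) and *Golga4* (0.914), and *Rb1* most like *2810408A11Rik* (0.898), *Mbd6* (0.881) and *Ccnt2* (0.878). *Rbl2* had no close match, and its highest r was 0.751, with *Dcaf17*.

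The 7 genes lie on 7 chromosomes. In GRCm38, *Cdkn1b* spans chr6:134920401-134925513 on the plus strand, *Cdkn1c* chr7:143458339-143461050 on the minus strand, *Cdkn2c* chr4:109660876-109667189, *Cdkn2d* chr9:21288410-21291407, *Rb1* chr14:73183673-73325822 and *Rbl1* chr2:157145893-157204534, all on the minus strand, and *Rbl2* chr8:91070057-91123844 on the plus strand.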

How the data were processed

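The authors sorted the labeled mouse cells, made 10x Chromium libraries and deposited raw UMI counts, with genes as rows and cells as columns. Per the labels, Cell Ranger, StringTie and Seurat 3 were used, with build mm10; the ferret reference and the strand setting are not given in the sources used here. Cells were kept within the study's limits for genes detected and mitochondrial share. The table's columns name no sample: the mouse barcode suffix with more cells was taken as control because its number matches the one the study gives, and the ferret suffixes were not tied to samples. No column belonged to another series (0 unused).

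A marker was on where its share of a cell's UMIs was above the mean share over kept cells of that table, and markers seen in under 0.5% of cells were not used. A cell took the type with the highest share of markers on, with at least 3 on and ties left unassigned; at least 3 G2/M or 5 S phase markers made it cycling. This rule was set after marker detection had been seen, and the 7 genes and all lists were chosen with earlier results of these data known. No doublet caller was run; leaving out cells with 3 markers of a second type (1855 control and 1396 *Smo*-cKO cells) was an alternative. Barcodes shared between suffixes numbered 28 in mouse and 38 in ferret. Types from Leiden clusters (scanpy 1.11.5, leidenalg 0.10.2, 2000 variable genes without the 7 genes, 30 components, 20 neighbours, resolution 1) were another. The other alternatives are named with their effect.

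Sums of UMIs were compared with numpy 2.4.6 and scipy 1.17.1 in Python 3.11.15. No p-value was computed, because each genotype is 1 library. The ratio and its interval were tested on simulated counts for 10579 genes of non-cycling RG-like cells: the interval held the true ratio for 95.5% of 200 changed genes, and 1.67% of unchanged genes passed 1.5-fold. Both libraries were drawn as Poisson counts from a shared profile, which is the error that the interval assumes. The simulation thus checks the calculation and holds no variation between embryos or preparations, so 1.67% is not a chance rate for the real libraries. The text names the 7 genes in every cell type, listed pathway genes past 1.5-fold in RG-like cells or needed for their group, and the 3 genes most like each of the 7. Subsets by *Neurog2*, *Neurod1* or neuronal UMIs, shared barcodes and the neighbours of *Cdkn1c* were chosen after seeing the data. Positions are from GENCODE M21, which held 16568 of the 17170 mouse symbols. A count of 0 allows up to 3 counts. Some genes of the tables are not reported here.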

Additional observations from a re-analysis of the deposited data

Results flagged for a closer look

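Differences between cell types or species were picked out where ratios lay on opposite sides of 1. None of these differences was itself tested, since each set is 1 library or part of 1 embryo. The mouse and ferret cells also differ in stage and sorting. *Cdkn1b* in PyN-like over non-cycling RG-like cells was 1.62 in mouse control and 1.95 in *Smo*-cKO, but 0.966 and 0.913 in the ferret sets. The *Smo*-cKO over control ratio of *Cdkn1b* was 1.18 in non-cycling and 1.48 in cycling PyN-IPC-like cells, 1.08 in newborn and 1.20 in maturing PyN-like cells, and 0.835 in G2/M RG-like cells. That of *Cdkn2d* was 1.22 in non-cycling RG-like cells and 0.576 in bMIPC-like cells. That of *Rb1* was 1.28 in non-cycling PyN-IPC-like cells and 1.14 in newborn PyN-like cells, against 0.741 in S phase RG-like cells.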

How the results depend on the processing

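Of 441 recomputed genotype ratios of the 7 genes, 416 stayed within the counting interval of the reported value, 25 moved beyond it, and 0 of the ratios past 1.5-fold changed side. The *Cdkn1c* ratio in non-cycling RG-like cells was 6.61 with clusters, 3.93 without cells with markers of a second type, 2.59 as a mean over cells and 2.67 without cells with neuronal UMIs. In non-cycling PyN-IPC-like cells it was 4.21 with clusters and 3.19 in cells with *Neurod1* and no *Neurog2*, and in newborn PyN-like cells it was 1.95 with 4 markers. The number of the 7 genes past 1.5-fold moved as follows. With clusters it was 1 in non-cycling PyN-IPC-like, 0 in bMIPC-like, 2 in inhibitory-like and 1 in maturing PyN-like cells. The clusters named bMIPC include the 1175 cells led by histone genes. With 4 markers it was 2 in cycling PyN-IPC-like, 1 in non-cycling PyN-IPC-like, 2 in bMIPC-like and 1 in maturing PyN-like cells. With all deposited cells it was 2 in cycling PyN-IPC-like and 0 in bMIPC-like cells. Without cells with markers of a second type it was 2 in cycling PyN-IPC-like, 1 in non-cycling PyN-IPC-like and 2 in non-cycling RG-like cells. As a mean over cells it was 4 in cycling PyN-IPC-like, 1 in S phase RG-like and 0 in bMIPC-like cells. In non-cycling PyN-IPC-like cells it was 1 with *Neurog2* alone and 1 with *Neurod1* alone. At 2-fold, 4 of the listed pathway genes passed in non-cycling RG-like cells, against 7 at 1.5-fold, and 4 in PyN-like cells, against 9. Thinning turned the difference in the share of cells, *Smo*-cKO minus control, to -3.12 percentage points for *Cdkn1b* in non-cycling RG-like cells, -1.96 in S phase, -4.92 in G2/M and -1.22 in bMIPC-like cells, and for *Cdkn2d* to -0.545 in G2/M and -0.184 in newborn PyN-like cells; the libraries differ in depth. The causes of the other moves were not tested. No paired analysis was possible because each genotype has 1 library, and for the same reason no library could be left out. Ferret PyN-like over RG-like ratios with clusters were not run, since no cluster took the non-cycling RG name. *Rbl1* had too few UMIs in several cell types for a difference of 1.5-fold to be told from none.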

Other observations

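*Cdkn1a* and *Cdkn1c* UMIs were compared cell by cell after their values had been seen. In non-cycling RG-like cells of *Smo*-cKO, 310 of 1171 cells (26.5%) held a *Cdkn1a* UMI, and their *Cdkn1c* level was 18.6 CPM against 23.1 CPM in the other cells, a ratio of 0.808 (0.560–1.15). In non-cycling PyN-IPC-like cells of *Smo*-cKO, 61 of 1444 cells (4.22%) held one, and the levels were 222 and 213 CPM, a ratio of 1.04 (0.823–1.30). The intervals of both ratios span 1. In control RG-like cells, 41 of 1339 (3.06%) held a *Cdkn1a* UMI, and their *Cdkn1c* level was 39.9 CPM (18.3–75.8) from 9 UMIs against 10.6 CPM (8.23–13.5) from 67 UMIs in the other cells. These 41 cells are fewer than the 50 required for a group, so no ratio was computed. The intervals cover counting error only, and the spread of the 9 UMIs over cells was not examined.

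*Cdkn1c* lies in an imprinted region, so the genes within 500 kb on each side were read. Counting *Cdkn1c* itself, the table held 19 genes in this span. Of these, 8 had enough UMIs in each of the 4 non-cycling cell types from RG-like to maturing PyN-like cells, *Cdkn1c* among them. *Cdkn1c* was the gene past 1.5-fold in PyN-IPC-like, newborn and maturing PyN-like cells. *Kcnq1ot1*, the long noncoding RNA of the region, was at 52.9 CPM in control and 28.8 CPM in *Smo*-cKO in non-cycling RG-like cells, a ratio of 0.543 (0.459–0.643). It was at 0.941 in PyN-IPC-like, 0.898 in newborn and 1.00 in maturing PyN-like cells.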
